A study of Mus musculus with 5 samples.

Results

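Keratins are the intermediate filament proteins of epithelial cells and hair, and each filament is built from pairs of 1 type I and 1 type II chain. Keratin-associated proteins (KAPs) are small cysteine-rich or glycine- and tyrosine-rich proteins that cross-link keratin filaments in the hair shaft. Cells of the brain build their intermediate filaments from other proteins, such as vimentin, nestin and the neurofilaments, so that the keratin and KAP genes are a large family of tissue-restricted genes that cortex does not normally use. Uhrf1 binds hemimethylated CpG sites behind the replication fork and brings in the DNA methyltransferase Dnmt1, and the question asked here was how many of these genes became detectable in cortex that had lost it.

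All genes whose names start with Krt or Krtap followed by a digit were taken, which gave 104 of the 23997 gene names in the table, 52 keratins and 52 KAPs. The libraries were made from the dissected whole cortex of C57BL/6 embryos at embryonic day 16. The 3 control libraries (MG15, MG16 and MG17) carry the genotype Uhrf1 +/- and the 2 conditional knockout (cKO) libraries (MG18 and MG19) the genotype Uhrf1 -/-, and both groups carry the Emx1-driven Cre, so that the controls have themselves lost 1 allele in the Cre lineage. Emx1-driven Cre acts in the dorsal telencephalon, and vessels, microglia and immigrant interneurons keep Uhrf1. Values are FPKM, fragment numbers divided by transcript length and by a size factor of the library, and the setting of that factor is not stated. Uhrf1 itself stood at 7.24, 13.2 and 13.0 FPKM in controls against 2.75 and 2.61 FPKM in MG18 and MG19.

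The table holds no counts, and depth could only be estimated from the steps between low values, at roughly 44000000, 16000000 and 11000000 fragments in MG15, MG16 and MG17 and 8600000 and 10000000 in MG18 and MG19. These depths are on the scale of the deposited FPKM and can differ from the numbers of fragments sequenced. Between 64.4% and 67.4% of all genes were listed above 0 in each library. Small RNAs took 39.2% to 87.4% of the summed FPKM of a library, and they were left out of the tests. The neuronal tubulin Tubb3 stood between 1533 and 2061 FPKM in every library, while the choroid plexus marker Ttr lay between 0 and 0.800 FPKM.

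Of the 103 members found in the mouse annotation (GRCm38), 27 keratin and 22 KAP genes lie on chromosome 11, where the type I keratins are clustered between positions 99232761 and 100269871. The type II cluster on chromosome 15, from 101347444 to 102032027, holds 24 keratin genes, the last of them Krt18, a type I gene. The other KAP genes lie on chromosome 16 (22 genes), chromosome 7 (5) and chromosome 10 (3). Krt85 was not matched.

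Their promoters are poor in CpG sites, the target of the methylation that Uhrf1 maintains. In RefSeq (GRCm38.p6), 82 members had a promoter sequence of 300 bases, from 250 before to 50 after the transcription start. The median number of CpG sites in it was 3, against 7 over the promoters of 27025 genes, and 75.6% of the members had at most 5, against 43.6% of all. The letters TATAAA, on either strand, stood in 70.7% of the members' promoters and in 14.2% of all. The most CpG sites were found for the simple epithelial keratins Krt7 with 21 and Krt18 with 17. The 250 bases upstream of the start are shown for Krt10, which was measured in every library, and for Krt13 and Krt7, which were listed above 0 in a single cKO library, to set a promoter with few CpG sites beside the one with the most. Capitals mark CpG sites, 2 each for Krt10 (chr11:99389365-99389614, minus strand) and Krt13 (chr11:100121567-100121816, minus strand) and 16 for Krt7 (chr15:101412153-101412402, plus strand). In the annotation, the stretch shown for Krt7 overlaps exons of a non-coding Krt7 transcript and of the antisense gene Gm671, and those of Krt10 and Krt13 overlap no exon.
Krt10: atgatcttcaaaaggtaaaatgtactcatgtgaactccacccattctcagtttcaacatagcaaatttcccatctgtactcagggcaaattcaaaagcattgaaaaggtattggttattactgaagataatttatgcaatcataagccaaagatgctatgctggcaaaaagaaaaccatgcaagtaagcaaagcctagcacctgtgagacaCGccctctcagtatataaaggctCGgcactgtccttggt
Krt13: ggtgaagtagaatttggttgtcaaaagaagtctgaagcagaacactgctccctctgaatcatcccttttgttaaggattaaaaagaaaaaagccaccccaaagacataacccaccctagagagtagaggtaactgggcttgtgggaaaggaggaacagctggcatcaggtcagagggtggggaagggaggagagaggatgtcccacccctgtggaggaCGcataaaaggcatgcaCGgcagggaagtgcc
Krt7: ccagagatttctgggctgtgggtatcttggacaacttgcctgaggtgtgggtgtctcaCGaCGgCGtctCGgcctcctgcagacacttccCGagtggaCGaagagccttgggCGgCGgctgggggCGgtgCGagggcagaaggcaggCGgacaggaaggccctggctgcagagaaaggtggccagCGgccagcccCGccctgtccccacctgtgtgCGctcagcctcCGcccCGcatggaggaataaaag

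Most of the family was listed at 0 in both genotypes. Of the 104 members, 70 were listed at 0 in all 5 libraries, among them 49 of the 52 KAPs, 11 of 15 keratins of the hair shaft, 4 of 9 of the inner root sheath and companion layer and 6 of 21 of stratified epithelia. None of the 6 keratins of simple epithelia was at 0 throughout. In the control libraries 18, 7 and 11 members were listed above 0, and in the cKO 11 in MG18 and 21 in MG19. Above 0.1 FPKM, the bound used by the study for expression, there were 5 members in each control, 5 in MG18 and 13 in MG19. MG18 thus held as many members as each control by this bound, and MG19 stood apart from all 4 others. With a bound of 0.05 FPKM the counts were 7, 5 and 9 in the controls, 11 in MG18 and 18 in MG19. Both cKO libraries then lay above each control. The summed level of all members was 4.61, 3.51, 4.85 and 4.64 FPKM in MG15 to MG18 and 6.00 FPKM in MG19. Without Krt10, Krt1 and Krt222, the members with the highest means, it was 0.777 to 0.811 FPKM in MG15 to MG18 and 3.89 FPKM in MG19. The highest count of members above 0 among the controls was in MG15, the deepest library. A median KAP transcript in the annotation is 853.5 bases long, so that 1 fragment on it is worth about 0.0348 FPKM in MG15 and 0.178 FPKM in MG18, and lower levels of a KAP were not detectable in MG18.

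**Figure D1:**
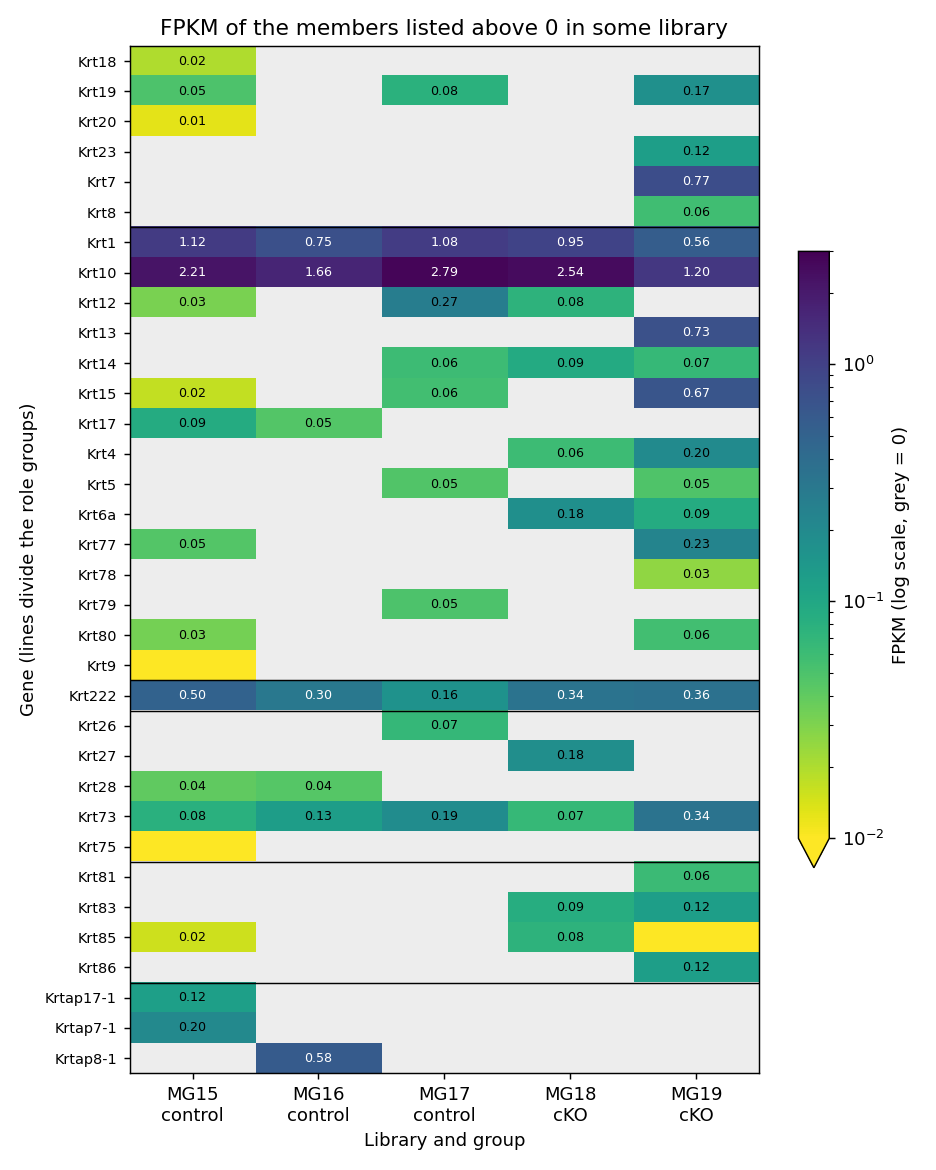
FPKM of the 34 members listed above 0 in some library (rows, grouped by role from simple epithelial keratins at the top to KAPs at the bottom) in each library (columns), on a log color scale with 0 in grey. Krt1, Krt10, Krt222 and Krt73 are above 0 in every library, while Krt7 and Krt13 are seen in MG19 alone.

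**Figure D2:**
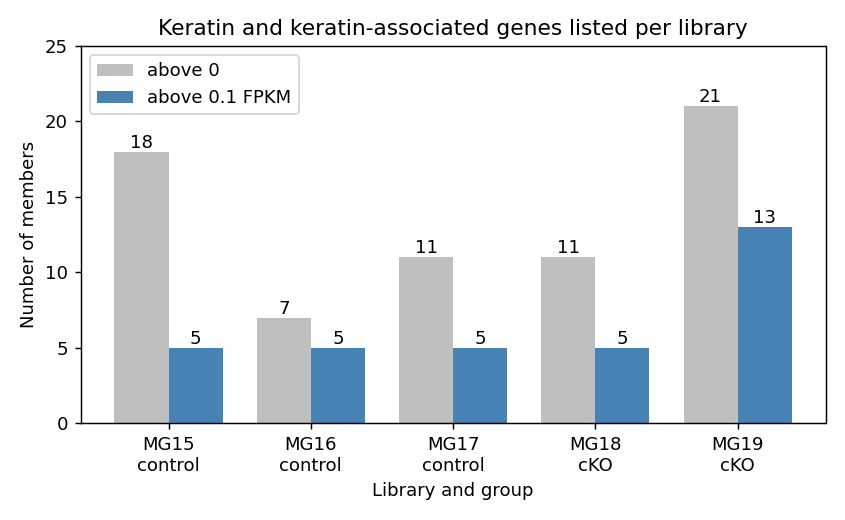
Number of members (vertical axis) listed above 0 (grey bars) and above 0.1 FPKM (blue bars) in each library. The count above 0.1 FPKM is 5 in the 3 controls and in the cKO library MG18, and 13 in the cKO library MG19.

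Of the members, 4 were measured in every library, and none of these passed the test between the groups. Krt10, which forms the filaments of suprabasal epidermal cells together with Krt1, had the highest level of the family, at 2.21, 1.66 and 2.79 FPKM in controls against 2.54 and 1.195 FPKM in MG18 and MG19. One cKO library lay within the controls and the other below them (log2 fold change -0.30, SE 0.36, adjusted p = 0.771, limma). Its partner Krt1 stood at 1.12, 0.747 and 1.08 FPKM in controls against 0.952 and 0.558 FPKM in MG18 and MG19 (log2 fold change -0.36, SE 0.36, adjusted p = 0.713). MG19 had the lowest value of both partners. An antisense gene, Gm11940, overlaps Krt10, and since the strand setting of the counting is not stated, part of the Krt10 value can belong to it.

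Krt222, a short keratin-like gene in the type I cluster, stood at 0.498, 0.304 and 0.165 FPKM in controls against 0.341 and 0.358 FPKM in MG18 and MG19 (log2 fold change 0.17, SE 0.46, adjusted p = 0.906). Both cKO values lay inside the range of the controls. Krt73, a type II keratin of the inner root sheath of the hair follicle, stood at 0.0808, 0.127 and 0.188 FPKM in controls against 0.0655 and 0.341 FPKM in MG18 and MG19, the lowest and the highest value of all 5 libraries (log2 fold change 0.25, SE 0.56, adjusted p = 0.884). In whole cortex, fewer cells of a type and less RNA per cell cannot be told apart.

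The comparison was fitted with limma on log2(FPKM + 0.1) over the 14698 genes whose mean reached 0.1 FPKM. Only 8 members did, Krt7, Krt13 and Krt15 among them through MG19 and Krtap8-1 through the control MG16. By the thresholds of the study, more than 2-fold with an unadjusted p below 0.05, 0 of the 8 were called in either direction, where 2.88% of all genes tested were called higher in the cKO and 1.16% lower. At an adjusted p under 0.05, 0 members were called, against 1.1% of all genes higher and 0.163% lower, and 0 members had an unadjusted p under 0.05. The adjusted p of the 8 lay between 0.508 and 0.906. Their groups overlapped in every case. For Krt7, Krt13, Krt15 and Krtap8-1, which entered through 1 library, values of 0 in both groups fixed this overlap in advance. The overlap is thus informative only for Krt1, Krt10, Krt222 and Krt73. Over all genes tested, the groups did not overlap for 30.8%. The median log2 fold change was 0.21 over the 8 members and -0.02 over all genes tested. A group of 3 against 2 libraries cannot reach an exact permutation p below 0.1.

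The study counted derepressed genes among its deregulated genes, which had passed its p and fold thresholds. Here only its FPKM bounds were used, a control mean under 0.1 FPKM and a cKO mean over it. By these bounds 7 members were derepressed, Krt4, Krt6a, Krt7, Krt13, Krt15, Krt77 and Krt83. They were 7.07% of the 99 members with a control mean under 0.1 FPKM, and the same rule took 7.81% of the 8312 such genes in the whole table. No KAP was among them. Krt7, Krt13 and Krt15 were tested and not called, and Krt4, Krt6a, Krt77 and Krt83 were not tested. When both cKO libraries had to lie over 0.1 FPKM and all controls under it, 0 of 96 members met the rule, against 2.74% of 7656 genes. Without MG19 the count was 2, Krt6a and Krt27, and without MG18 it was 9. Among the 81 members listed at 0 in all controls, 4 were above 0 in MG18, or 4.94%, where 5.77% of all such genes were. In MG19 there were 10, or 12.3%, where 6.23% of all such genes were.

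After Krt10, the highest levels in MG19 were those of Krt7, Krt13 and Krt15, which were at or near 0 in the other 4 libraries. Krt13, a type I keratin of the oral and esophageal lining, was listed at 0 in all controls and in MG18 and at 0.731 FPKM in MG19, which corresponds to about 10.6 fragments. Krt4, its type II partner in these linings, was at 0 in the controls, at 0.0601 FPKM in MG18 and at 0.196 FPKM in MG19. Krt7, a type II keratin of glandular and ductal epithelia, was at 0 in all controls and in MG18 and at 0.774 FPKM in MG19. An antisense gene, Gm671, overlaps Krt7.

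Krt15, a type I keratin of basal cells and of hair follicle stem cells, was listed at 0.0170, 0 and 0.0564 FPKM in controls, at 0 in MG18 and at 0.666 FPKM in MG19, or about 10 fragments. Krt19, a type I keratin of simple epithelia, reached 0.173 FPKM in MG19 and at most 0.0784 FPKM elsewhere. By the estimate of depth this was about 2.4 fragments in MG19, against about 3 in the deeper control MG15. Krt77, a type II keratin of the epidermis and sweat ducts, stood at 0.231 FPKM in MG19 and at 0.0464 FPKM in the control MG15, the only other library in which it was above 0. These values correspond to about 6.3 and 5.6 fragments. For Krt13 and Krt7 only 1 cKO library was above 0, and no fold is given. Their adjusted p was 0.510 and 0.508. For Krt15 it was 0.600 (limma).

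Of the 6 keratins of simple epithelia, 3 were above 0.1 FPKM in MG19 and 0 in every other library. These were Krt7, Krt19 and Krt23, the last a type I keratin listed at 0.124 FPKM in MG19 and at 0 elsewhere. They had about 30.1, 2.4 and 1.7 fragments in MG19, and Krt19 had about 3 in MG15. All fragment numbers use the longest annotated transcript of a gene, which for Krt7 is 4094 bases, against 1654 for Krt13. With a shorter Krt7 transcript its number would be lower, so that 30.1 fragments is no sign of better support than Krt13 had. Krt8 and Krt18, the pair of simple embryonic epithelia, stood at 0.0577 and 0 FPKM in MG19, and the other one, Krt20, was at 0 there. Krt5, of basal epidermal cells, stood at 0.0474 FPKM in the control MG17 and at 0.0478 FPKM in MG19, about 1 fragment each, and at 0 elsewhere. Krt14, its partner, stood at 0.0601 FPKM in MG17, 0.0916 FPKM in MG18 and 0.0661 FPKM in MG19, and at 0 in MG15 and MG16.

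Only 3 members were at 0 in all controls and above 0 in both cKO libraries, or 3.7% of 81, where 2.49% of all genes at 0 in the controls were. They were Krt4, with the values above, Krt6a and Krt83. Krt6a, a keratin induced in wounded epidermis, stood at 0.176 FPKM in MG18 and 0.0907 FPKM in MG19, or about 3.3 and 2 fragments. Krt83, a type II keratin of the hair cortex, stood at 0.0862 and 0.123 FPKM, or about 1.2 and 1.9 fragments. None of the 3 reached the mean asked for in the test. Krt6a is nearly identical to Krt6b, and Krt83 shares sequence with Krt81 and Krt86, so that the split of fragments among these copies is uncertain. An antisense gene, Gm49428, overlaps Krt6a.

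The remaining keratins of the hair follicle gave isolated values. Krt27 of the inner root sheath was above 0 in MG18 alone, at 0.180 FPKM, and Krt26 in the control MG17 alone, at 0.0666 FPKM. Krt28 was above 0 in the controls MG15 and MG16 only, at 0.0405 and 0.0448 FPKM. Of the hair shaft keratins, Krt81 and Krt86 were above 0 in MG19 alone, at 0.0614 and 0.123 FPKM. Krt85 stood at 0.0156 FPKM in MG15 and 0.0758 FPKM in MG18. Of the stratified epithelial keratins, Krt17 was above 0 in the controls MG15 and MG16 only, at 0.0889 and 0.0465 FPKM, and Krt12 of the cornea was highest in the control MG17, at 0.266 FPKM, against 0.0751 and 0 FPKM in the cKO.

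No KAP was above 0 in either cKO library. The 3 KAPs seen at all were in controls, Krtap17-1 and Krtap7-1 in MG15 at 0.121 and 0.204 FPKM and Krtap8-1 in MG16 at 0.583 FPKM, each with 3 to 3.8 fragments by the estimate of depth. For a median KAP transcript, 1 fragment is worth about 0.178 FPKM in MG18 and 0.153 FPKM in MG19. It is worth more on the shorter Krtap17-1 (761 bases) and Krtap7-1 (621 bases). By this estimate the MG15 levels of Krtap17-1 and Krtap7-1 lay below 1 fragment in either cKO library and could not be seen there. Krtap8-1, of the glycine- and tyrosine-rich class, was the only KAP that could be tested (log2 fold change -0.92, SE 0.86, adjusted p = 0.693, limma), and 1 of its 3 controls was above 0.

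**Figure D3:**
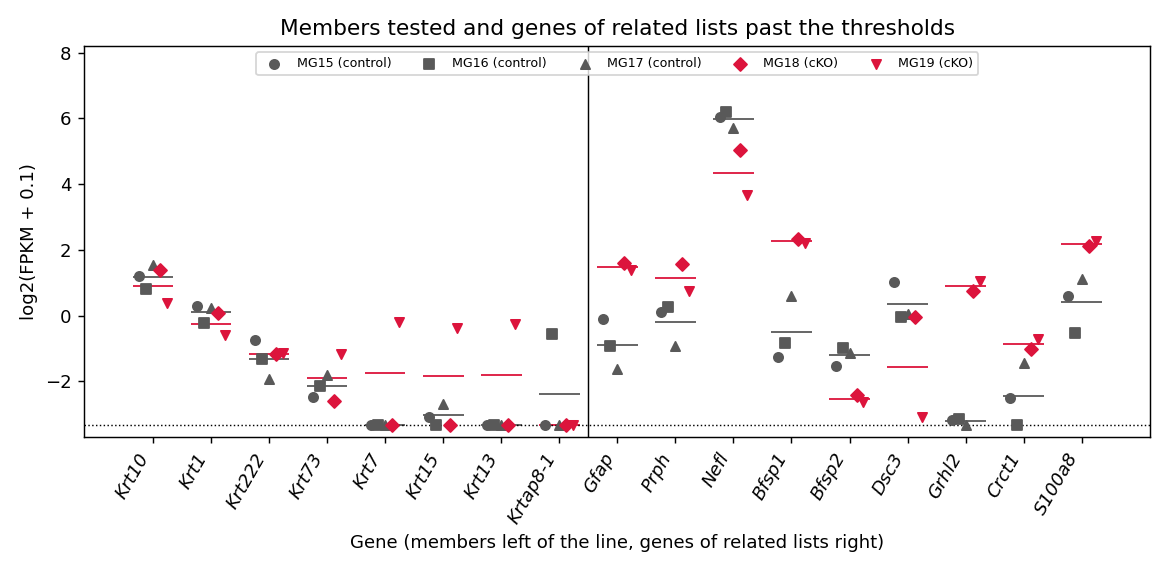
Log2(FPKM + 0.1) (vertical axis) of the 8 members tested (left of the line) and of the 9 genes of the related lists past the thresholds of the study (right), in controls (grey) and cKO (red). The mean of each group is a short line, and 0 FPKM is dotted. The groups overlap for every member. Both cKO values of Grhl2, 1.56 and 1.95 FPKM, lie above its controls, which are near 0, and Grhl2 entered the test through these cKO values.

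Of 34 genes for desmosomes, hemidesmosomes and regulators of keratinocytes, 22 had a control mean under 0.1 FPKM. By the rule above 2 of these were derepressed, and it took 7.81% of all such genes. Of all genes tested, 2.88% passed the thresholds of the study as higher and 1.16% as lower. The test covered 13 of the 34, and 1 passed these thresholds in each direction. The higher one was Grhl2, a grainyhead-like transcription factor that drives epithelial genes. Grhl2 stood at 0.0101, 0.0125 and 0 FPKM in controls against 1.56 and 1.95 FPKM in MG18 and MG19, with both above all controls (log2 fold change 4.11, SE 0.41, adjusted p = 0.00101, limma). It reached the mean asked for in the test only through the cKO, and with controls near 0 its fold depends on the pseudocount, with a log2 fold change of 1.45 at a pseudocount of 1 and 6.73 at 0.01 FPKM. The log2 fold change of Grhl2 was 4.26 without MG18 and 3.95 without MG19. These fits use the cKO values through which the gene entered, so they add no independent support. Dsc3, a desmosomal cadherin, stood at 1.94, 0.880 and 0.938 FPKM in controls against 0.868 and 0.0181 FPKM in MG18 and MG19 (log2 fold change -1.91, SE 0.76, adjusted p = 0.390). Without MG19 the log2 fold change was -0.40, and the gene passed neither then nor without MG15 or MG17, at a pseudocount of 1 FPKM or with no filter on low genes. Trp63, the transcription factor of basal epidermal cells, was not tested and lay at or below 0.0839 FPKM in every library.

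Of 56 genes of the epidermal barrier, 51 had a control mean under 0.1 FPKM and 3 of these were derepressed by the rule above, which took 7.81% of all such genes. Of the 7 tested, 2 were higher by the thresholds of the study, where 2.88% of all genes tested were, and none passed an adjusted p under 0.05. S100a8, a calcium-binding protein of neutrophils and stressed keratinocytes, stood at 1.41, 0.598 and 2.08 FPKM in controls against 4.23 and 4.70 FPKM in MG18 and MG19 (log2 fold change 1.79, SE 0.43, adjusted p = 0.117, limma). S100a9, of the same list, did not pass. It stood at 0.782, 0.778 and 3.03 FPKM in controls against 1.53 and 1.21 FPKM in MG18 and MG19 (log2 fold change 0.12, SE 0.53, adjusted p = 0.945, limma). Crct1, a cysteine-rich protein of stratified epithelia, stood at 0.0746, 0 and 0.265 FPKM in controls against 0.390 and 0.510 FPKM in MG18 and MG19 (log2 fold change 1.56, SE 0.59, adjusted p = 0.363). Crct1 did not pass when any 1 of MG15, MG16, MG18 and MG19 was left out, nor at a pseudocount of 1 or of 0.01 FPKM.

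Of 16 genes for intermediate filaments other than keratins, among them those of brain, muscle and lens and the nuclear lamins, 15 were tested. By the thresholds of the study 3 were higher and 2 lower, where 2.88% of all genes tested were higher and 1.16% lower, and at an adjusted p under 0.05 there were 2 higher and 0 lower (limma). Bfsp1, the beaded filament protein of lens fibers, rose from 0.318, 0.466 and 1.40 FPKM to 4.92 and 4.54 FPKM (log2 fold change 2.77, SE 0.49, adjusted p = 0.0281, limma), and Gfap, the filament of astrocytes, rose from 0.833, 0.424 and 0.224 FPKM to 2.91 and 2.52 FPKM (log2 fold change 2.37, SE 0.44, adjusted p = 0.0362). The adjusted p of both was above 0.05 without either cKO library, at 0.368 to 0.443, and without the control MG16, and that of Gfap without MG17 too. It was also above 0.05 for both at a pseudocount of 0.01 FPKM and with no filter, and for Gfap with quantile normalization. The paper describes a mild rise of Gfap RNA in the E16 ventricular zone, but detected no transcripts by RT-qPCR. It also reports that Gfap staining was absent from the E16 cortex of both genotypes. Prph, the filament of peripheral neurons, passed only before adjustment (log2 fold change 1.34, adjusted p = 0.266), and not without MG17 or MG18, at a pseudocount of 1 FPKM or with equal summed FPKM. Nefl, the light neurofilament, was lower at 65.0, 73.6 and 52.1 FPKM in controls against 32.5 and 12.6 FPKM in MG18 and MG19 (log2 fold change -1.63, adjusted p = 0.0626), and Bfsp2, the partner of Bfsp1, at a log2 fold change of -1.32 (adjusted p = 0.299), which did not pass without MG16 or at a pseudocount of 1 FPKM. Without MG19 Nefl did not pass, with a log2 fold change of -0.95.

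Markers of other tissues were read beside the keratins of MG19. Of the 56 barrier genes, 17 were above 0 in MG19 and 9 to 12 in the other libraries, and 13 were above 0.1 FPKM in MG19 against 8 in MG18 and 4 to 6 in the controls. Among these, Sprr1a and Sprr3, small proline-rich proteins of the cornified envelope, were above 0 in MG19 alone, at 0.152 and 0.191 FPKM. By the estimate of depth, 1 fragment on a transcript of 853.5 bases is worth about 0.153 FPKM in MG19, 0.178 FPKM in MG18 and 0.139 FPKM in MG17. In MG15 and MG16 it is worth about 0.0348 and 0.0956 FPKM. A short gene thus passed 0.1 FPKM with fewer fragments in MG17, MG18 and MG19 than in MG15. Of 11 markers of surface ectoderm and epidermis, 8 were above 0 in MG19 and 7 to 10 in the others. Their summed level was 3.99 FPKM in MG19, 4.82 FPKM in MG18 and 2.68 to 3.90 FPKM in the controls, with Grhl2 and Dsc3 among them. Grhl2 alone gave 1.95 FPKM of the sum in MG19 and 1.56 FPKM in MG18, against at most 0.0125 FPKM in a control. Of the 5 tested, 2 were higher by the thresholds of the study and 1 lower, where 2.88% and 1.16% of all genes tested were. Besides Grhl2 and Dsc3 this was Sfn (log2 fold change 1.30, SE 0.39, adjusted p = 0.240, limma). Cdh1, the cadherin of epithelia, stood at 0.0658 FPKM in MG19 and Trp63 at 0.0446 FPKM. Of 9 meningeal markers, 8 or 9 were above 0 in each library, and they summed to 12.3 FPKM in MG19, 13.1 FPKM in MG18 and 5.60 to 7.39 FPKM in the controls. In MG18 Dcn gave 6.90 FPKM of the sum, against 0.997 FPKM in MG19 and 0.906 to 1.66 FPKM in controls. In MG19 Col1a1, Col1a2 and Col3a1, at 3.19, 2.67 and 2.98 FPKM, lay above all other libraries. In MG18 these collagen genes lay within or below the controls. Of 12 genes of skeletal muscle, a list written after the values were seen, 7 were above 0.1 FPKM in MG19, 3 in MG18 and 2 in each control, and their summed level was 2.69 FPKM in MG19 against 0.595 to 1.27 FPKM elsewhere. The part of tissue other than cortex in the MG19 values was not tested.

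**Figure D4:**
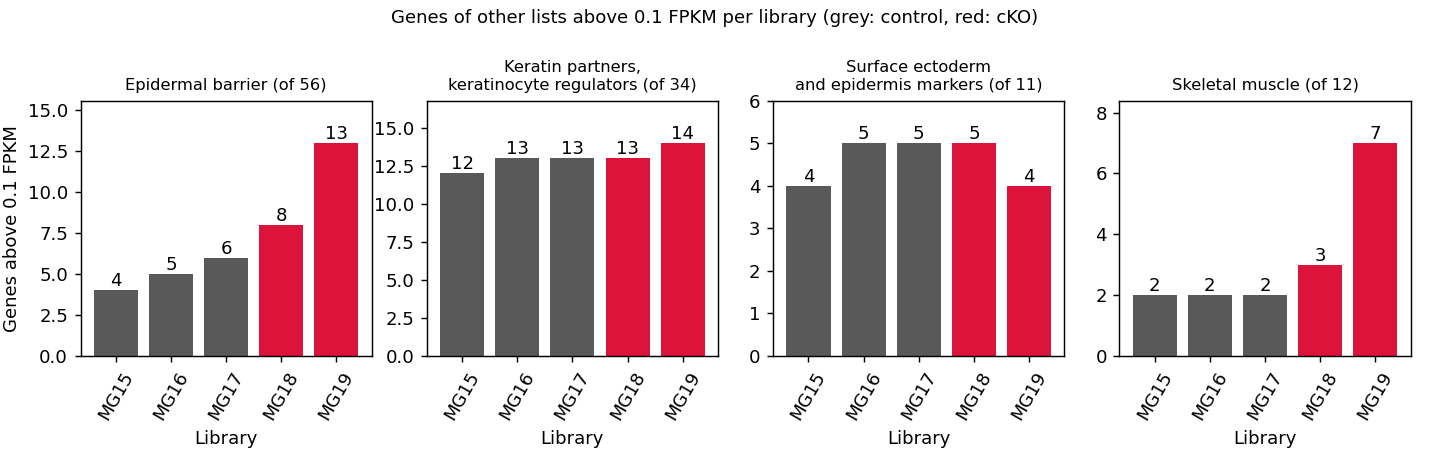
Number of genes above 0.1 FPKM (vertical axes, each from 0) in each library for 4 lists, controls in grey and cKO in red. Barrier genes and skeletal muscle genes reach 13 and 7 in MG19, while surface ectoderm markers stay at 4 or 5 in every library.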

How the data were processed

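RNA of whole E16 cortex was depleted of ribosomal RNA and made into strand-specific libraries. The authors mapped paired reads to mm10 with TopHat2, kept proper pairs, removed multiply mapped, duplicated and poorly aligned reads, and deposited FPKM per gene and library from Cuffdiff and cummeRbund. The sources used here give no versions, annotation or strand setting of the counting. Close paralogs, as among keratins and KAPs, lose fragments to these filters.

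From the deposited FPKM, log2(FPKM + 0.1) was fitted with limma 3.58.1 (R 4.3.3, trend on the mean), cKO against control with no covariate, over the 14698 genes whose mean reached 0.1 FPKM. The p was adjusted after Benjamini and Hochberg. The 57 small RNAs reaching that mean were left out. Fold changes on this scale understate changes of low genes, and a 0 can be a failed estimate. The fit was checked on simulated data. Depth was estimated from low values of genes with 1 annotated transcript of at least 3000 bases, of which 70.7% to 83.3% came out whole to within 0.25 (50% by chance), so that depth and fragment numbers are rough.

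The text names each member past the thresholds, the 14 other members with the highest mean, the derepressed members, and up to 4 genes past the thresholds per related list. All other genes in the text, such as Krt5, Krt8, Krt17, Krt18, Krt20, Krt23, Krt26, Krt27, Krt28, Krt81, Krt85, Krt86, Krtap7-1, Krtap17-1, Sprr1a, Sprr3, Cdh1 and Trp63, were named after their values were seen. Members and lists were chosen with earlier results of these data known. Positions are from GENCODE M21 (GRCm38, the build of mm10) and promoters from RefSeq GRCm38.p6. The labels do not state whether a library is 1 animal, so p-values measure the spread between libraries.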

Additional observations from a re-analysis of the deposited data

How the results depend on the processing

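At an adjusted p under 0.05, 0 members were called under each of 12 alternatives, which tested all 8 or more except for 1 (Krt10) at a mean of at least 1 FPKM, 5 without MG19 and 7 without MG16. By the thresholds of the study, the count of 0 became 3 with no filter (Krt4, Krt6a and Krt83) and lay between 0 and 3 when 1 library was left out, with 3 (Krt7, Krt13 and Krt15) without MG18. These 2 counts of 3 come from genes that enter the fit through the cKO values tested, so they are no support for a difference. The median log2 fold change over the members tested, which are not the same members in each setting, ranged from -0.30 (Krt10 alone, mean of at least 1 FPKM) to 0.57 without MG18. It was also below 0 with quantile normalization (-0.0515), with equal summed FPKM (-0.0502) and without MG19 (-0.0206). With equal summed FPKM the median over all genes was -0.38, against -0.02 as reported. Krt222 had log2 fold changes of -0.0918 with quantile normalization, -0.12 with equal sums and -0.13 without MG17, Krt73 of -0.0111 with quantile normalization and -0.46 without MG19, and Krt10 of 0.22 without MG19, all of opposite sign to the reported values. With 1 library left out, the log2 fold change ranged from -0.81 to 0.22 for Krt10, -0.70 to -0.02 for Krt1, -0.13 to 0.46 for Krt222 and -0.46 to 0.95 for Krt73. The count of 7 derepressed members was 12 with a bound of 0.05 FPKM, 0 with 0.5 FPKM, 0 when each library had to satisfy the bound, 3 when members had to be at 0 in all controls and above 0 in both cKO libraries (a rule added after seeing the data), and 2 to 9 with 1 library left out. Members above the bound numbered 7, 5, 9, 11 and 18 in MG15 to MG19 at 0.05 FPKM, and 2, 3, 2, 2 and 5 at 0.5 FPKM. The cause of these shifts was not tested. Counts per library have no value with that library left out. No paired analysis was possible because the labels give no replicate numbers, and the numbers used here follow the order of the samples and pair none.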

Other observations

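Genes at 0.5 FPKM or more in 1 library and at most 0.1 FPKM in each of the 4 others, small RNAs left out, numbered 15 in MG19 and 1, 2, 4 and 4 in MG15, MG16, MG17 and MG18. This rule was chosen after the values were seen. Besides Krt7, Krt13 and Krt15, the MG19 genes included Tnnc2 and Myl2, troponin and myosin subunits of striated muscle, at 0.543 and 0.529 FPKM, the homeobox genes Isl1 at 1.23 FPKM and Barx1 at 0.532 FPKM, and Saa3, an acute-phase protein, at 0.978 FPKM. In MG16 one of the 2 genes was Krtap8-1.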
